A study of Mus musculus with 13 samples.

Results

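The genes described are p53 apoptosis and survival targets, a list of 10 genes that p53 is known to switch on, or that set whether a cell survives, followed in mouse liver across untreated animals and 4 Rb1 genotypes treated with the carcinogen diethylnitrosamine (DEN). The members were chosen by name, as probe sets annotated to 1 listed gene symbol alone. All 10 were among the 19938 genes measured and among the 14953 that passed a filter on dim genes, each through 1 probe set. Bbc3, Pmaip1, Fas, Perp, Tnfrsf10b, Aen and Ei24 are linked to cell death, Ddias and the BCL-2 proteins Bcl2l1 and Mcl1 to survival.

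The study measured total RNA of frozen liver on 13 Affymetrix arrays, 1 per sample, and compared DEN-treated livers of different Rb1 genotypes with each other and with untreated liver. DEN was injected once into the peritoneum at 20 mg/kg body weight in mice 14 days old, and the livers were taken 24 hours later. Wild-type DEN livers (2 arrays, numbered 3 and 4) carried loxP-flanked Rb1 and no Cre. Heterozygous DEN livers (2 arrays, 3 and 4) carried 1 functional Rb1 allele and 1 floxed allele with Cre, although another of their labels reads LOH. N750F DEN livers (5 arrays, 1 to 5) carried the RB N750F mutation, and their labels name neither the other allele nor Cre. Knockout-labelled DEN livers (2 arrays, 1 and 2) carried floxed Rb1 with Cre, which removes exon 19. Untreated livers (2 arrays, 1 and 2) were floxed without Cre and came from saline-injected littermates. Cre was driven by the albumin promoter, so deletion was directed to hepatocytes. Its extent in hepatocytes and in other cells of the liver was not measured here. There was no untreated group of the 3 mutant genotypes, so in their comparisons with untreated liver the genotype and DEN cannot be told apart. The labels do not say how the arrays of a group relate to litters, and p-values measure the spread between these samples.

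DEN is activated in hepatocytes to a compound that alkylates DNA, and damaged DNA stabilises the transcription factor p53. Among p53 targets are BH3-only proteins, which open the mitochondrial outer membrane by engaging the BCL-2 family, and death receptors, which activate caspases from the cell surface. BCL-XL and MCL-1, the proteins of Bcl2l1 and Mcl1, hold the mitochondrial route in check, and both are known to protect hepatocytes.

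Some facts of the arrays touch these results. All 10 measured hepatocyte markers were above the filter level in every group, with summed intensities of 42104 to 56209 in DEN livers and 53003 to 53553 in untreated livers. Rb1 read 7.92 and 6.57 on the log2 scale on the knockout-labelled arrays, 8.04 and 8.01 on the wild-type DEN arrays, and 7.27 and 7.15 in untreated livers. The sources used here do not place its probes relative to exon 19, so Rb1 does not check the deletion. Knockout-labelled array 2 stood apart, with a summed intensity of 8745 over 11 skeletal muscle genes, against 670 on knockout-labelled array 1 and 618 to 883 on the other DEN arrays and 697 to 741 in untreated livers. Y-linked probe sets were at background on 7 arrays, among them both wild-type DEN arrays and 4 of the 5 N750F arrays. They were high on both heterozygous and both knockout-labelled arrays, so sex was uneven between groups. Between wild-type DEN livers and heterozygous or knockout-labelled livers, sex and genotype changed together. The arrays came from 2 runs, and only the wild-type DEN, heterozygous and N750F groups had arrays in both.

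RefSeq promoter windows of GRCm38.p6, from 250 bases before to 50 after a gene start, were available for 7 of the 10 members, and not for Pmaip1, Perp and Tnfrsf10b. They were searched for the p53 half-site decamer, whose consensus reads the same on both strands, and for 2 adjacent decamers with intact core bases and at most 3 mismatches, of which a half-site can form part. The decamer occurred in 8.36% of all 32851 windows and the adjacent pair in 0.572%. Bbc3 held an adjacent pair 97 bases before the start in 1 of its 3 windows (chr7:16309486-16309505, plus strand). Aen held a pair, with an exact decamer in it, at chr7:78895937-78895956 on the plus strand, which is 11 bases after the start of one of its windows and 121 bases before that of the other. Ei24 held 1 exact decamer 10 bases before its start (chr9:36797335-36797344, minus strand). No match was found in the windows of Ddias, Fas, Bcl2l1 and Mcl1. The sequences of the 3 matches are shown because p53 binding is what the list is named for, and Ddias because it changed most. Capitals mark the matches. A match describes letters only, and its absence from a window says nothing about p53. The stretches are chr7:16309456-16309535 (Bbc3, plus strand), chr7:78895907-78895976 (Aen, plus), chr9:36797285-36797584 (Ei24, minus) and chr7:92874198-92874497 (Ddias, minus).
Bbc3: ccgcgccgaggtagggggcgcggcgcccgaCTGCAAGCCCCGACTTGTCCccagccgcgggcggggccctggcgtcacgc
Aen: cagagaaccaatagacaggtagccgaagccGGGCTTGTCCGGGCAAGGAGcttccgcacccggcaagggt
Ei24: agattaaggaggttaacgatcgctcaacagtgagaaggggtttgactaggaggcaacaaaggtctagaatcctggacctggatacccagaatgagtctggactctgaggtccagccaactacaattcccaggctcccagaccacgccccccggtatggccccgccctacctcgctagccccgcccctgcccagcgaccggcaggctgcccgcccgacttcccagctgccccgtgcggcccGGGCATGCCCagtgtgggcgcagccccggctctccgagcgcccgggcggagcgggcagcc
Ddias: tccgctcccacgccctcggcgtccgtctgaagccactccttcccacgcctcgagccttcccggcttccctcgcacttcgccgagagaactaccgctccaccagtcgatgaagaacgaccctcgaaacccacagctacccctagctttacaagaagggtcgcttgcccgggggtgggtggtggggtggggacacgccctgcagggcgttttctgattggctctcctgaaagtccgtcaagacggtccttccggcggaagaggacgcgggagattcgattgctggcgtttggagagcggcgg

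The question put first was whether DEN changed these genes. Ddias and Ei24 rose in wild-type liver after DEN, Ddias rose in all 4 genotypes, and the BH3-only genes and the survival genes Bcl2l1 and Mcl1 did not pass the test in any of the 4. Tnfrsf10b, a death receptor, passed in N750F livers. Under an alternative fit with array weights, Pmaip1 (higher) and Bcl2l1 (lower) also passed in N750F livers. Levels below are log2 of the normalized intensity plus 16, and a gene passed where limma's adjusted p was below 0.05. In wild-type DEN livers 2 of the 10 members passed, both higher, against 0.689% of all genes tested. In heterozygous DEN livers 2 passed, both higher, against 1.4%. In N750F DEN livers 3 passed, all higher, against 6.21%. In knockout-labelled DEN livers 1 passed, higher, against 0.0869%. In the mean of the 4 DEN groups 2 passed, both higher, against 2.19%. The median log2 difference of the members was 0.34 in wild type, 0.73 in heterozygous, 0.72 in N750F and 0.72 in knockout-labelled livers, and the median of all genes tested was between -0.06 and -0.02. All 4 comparisons share the same 2 untreated arrays, so their results are not independent of each other. The members were chosen with earlier results of these data known, so their counts and medians are no independent evidence.

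**Figure D1:**
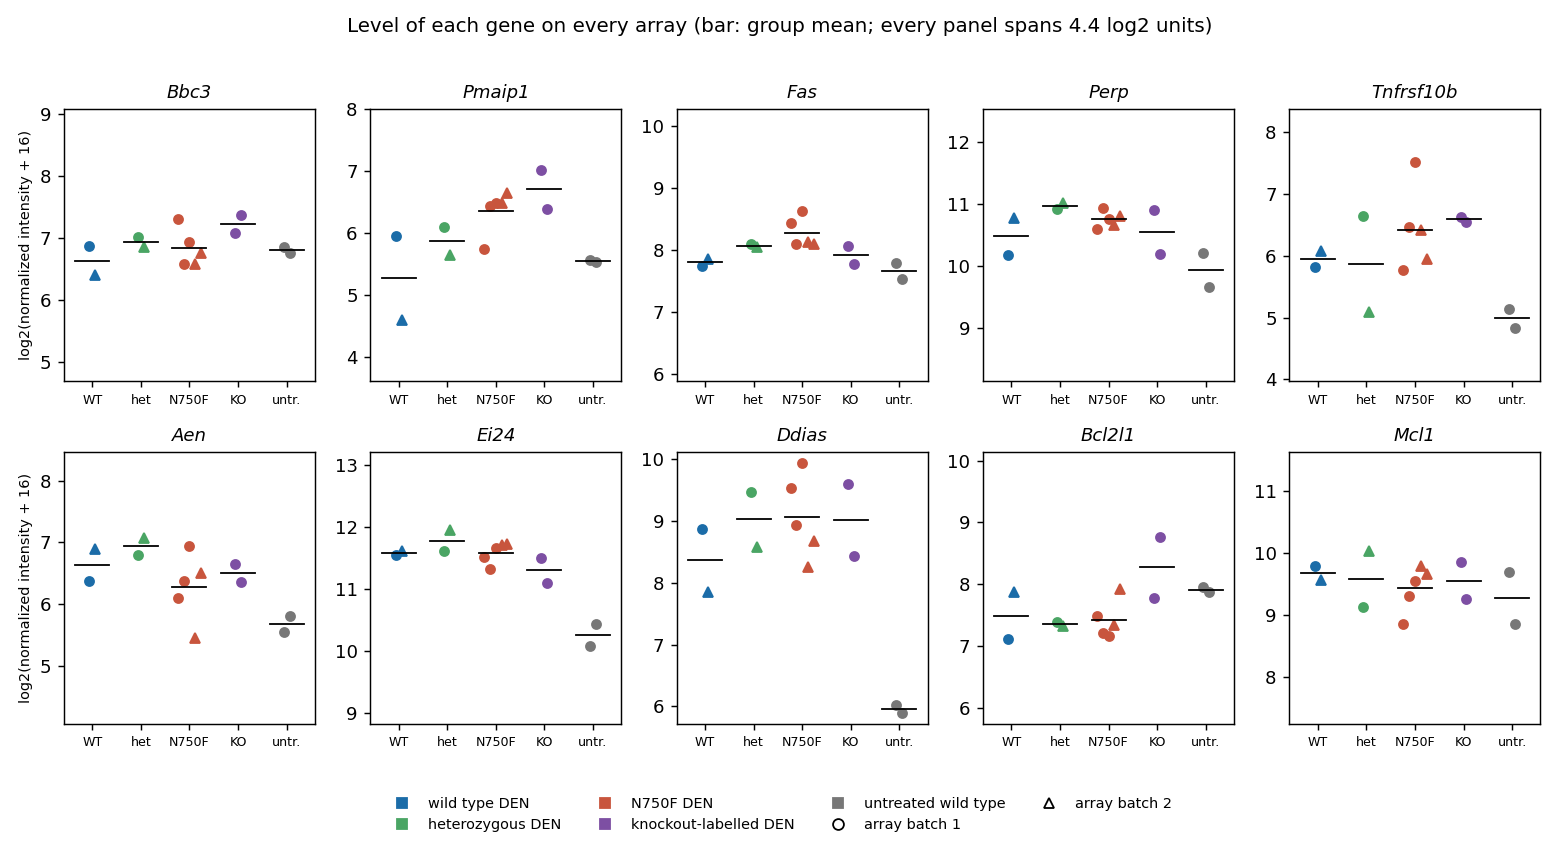
Level of each of the 10 genes on each of the 13 arrays, as log2 of the normalized intensity plus 16, by group, with a bar at the group mean. Circles are arrays of the first run and triangles of the second, each panel spans the same number of log2 units, and Ddias stands at 7.85 to 9.94 on the 11 DEN arrays against 5.90 and 6.03 in untreated livers.

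The BH3-only genes come first. Bbc3 encodes PUMA, which binds and neutralises the survival proteins of the BCL-2 family. Bbc3 read 6.87 and 6.40 in wild-type DEN livers, 7.02 and 6.86 in heterozygous, 7.31, 6.58, 6.93, 6.58 and 6.76 in N750F, 7.08 and 7.37 in knockout-labelled, and 6.85 and 6.75 in untreated livers. Both heterozygous and both knockout-labelled arrays were above both untreated arrays, if narrowly, and the wild-type and N750F arrays overlapped them. The share of all genes with such a separation of a single group was not counted. In all, 7 of the 11 DEN arrays were above both untreated arrays and 3 were below both. The mean of the DEN groups differed from untreated by 0.21 (95% interval -0.25 to 0.67, limma adjusted p = 0.698), and no DEN group passed on its own. Its promoter pair is shown above.

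Pmaip1 encodes NOXA, a BH3-only protein that acts mainly on MCL-1. Pmaip1 read 5.96 and 4.59 in wild-type DEN livers, 6.10 and 5.65 in heterozygous, 5.75, 6.43, 6.48, 6.48 and 6.65 in N750F, 7.02 and 6.39 in knockout-labelled, and 5.56 and 5.54 in untreated livers. All DEN arrays except wild-type array 4 were above both untreated arrays. The 4.59 on that array lay within the 4.13 to 4.94 read by Y-linked probe sets on arrays without Y-linked signal, a guide to background. The difference from untreated was -0.16 in wild-type DEN livers, 0.44 in heterozygous, 0.90 in N750F (limma adjusted p = 0.146) and 1.15 in knockout-labelled livers (limma adjusted p = 0.363). Pmaip1 passed the filter on dim genes, at 5.94, through its higher groups, with means of 6.36 in N750F and 6.70 in knockout-labelled livers. Its means of 5.27 in wild-type DEN, 5.88 in heterozygous and 5.55 in untreated livers lay below that level.

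The death receptors follow. Fas is the receptor of FAS ligand and is abundant on hepatocytes. Fas read 7.74 and 7.85 in wild-type DEN livers, 8.09 and 8.04 in heterozygous, 8.43, 8.09, 8.63, 8.13 and 8.10 in N750F, 8.06 and 7.77 in knockout-labelled, and 7.78 and 7.52 in untreated livers. Both heterozygous and all 5 N750F arrays lay above both untreated arrays, and wild-type and knockout-labelled arrays overlapped them. The share of all genes separated in this way was not counted. The N750F difference of 0.68 ± 0.22 (SE, 95% interval 0.20 to 1.15) had a limma adjusted p of 0.085 and did not pass.

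Tnfrsf10b is the mouse receptor of the death ligand TRAIL. Tnfrsf10b read 5.81 and 6.07 in wild-type DEN livers, 6.64 and 5.09 in heterozygous, 5.77, 6.47, 7.51, 6.41 and 5.94 in N750F, 6.63 and 6.54 in knockout-labelled, and 5.14 and 4.83 in untreated livers. Only heterozygous array 4, at 5.09, fell between the untreated arrays, and the other 10 DEN arrays were above both. Untreated levels were at or near the background guide, so the fold on this scale understates a rise. Tnfrsf10b rose by 1.64 ± 0.42 in N750F livers (SE, 95% interval 0.74 to 2.55, limma adjusted p = 0.0369). Its differences were of like size elsewhere without passing, at 1.22 in wild-type DEN, 1.14 in heterozygous and 1.60 in knockout-labelled livers (limma adjusted p = 0.302, 0.289 and 0.259). The N750F call was lost without N750F array 2 (1.71, adjusted p = 0.0641), N750F array 3 (1.31, 0.0907), untreated array 1 (1.80, 0.256) or untreated array 2 (1.49, 0.188), and among arrays of the first run alone (1.60, 0.0682). It was also lost with no run term (1.44, 0.144) and with Y-linked signal added to the model (1.54, 0.0564). Tnfrsf10b passed the filter on dim genes, at 5.94, through its higher groups, since its mean was 6.42 in N750F and 6.59 in knockout-labelled livers, against 4.98 in untreated livers. With no filter its N750F difference was 1.64 (adjusted p = 0.0442).

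Perp, Aen and Ei24 are p53 targets that act downstream or beside these routes. Perp encodes a membrane protein of desmosomes that promotes p53-dependent death. Perp read 10.18 and 10.77 in wild-type DEN livers, 10.92 and 11.01 in heterozygous, 10.59, 10.94, 10.75, 10.66 and 10.81 in N750F, 10.90 and 10.19 in knockout-labelled, and 10.20 and 9.66 in untreated livers. Wild-type array 3 and knockout-labelled array 2 fell just below the higher untreated array, and the other 9 DEN arrays were above both. The mean of the DEN groups was 0.71 ± 0.24 above untreated (SE, limma adjusted p = 0.138) and did not pass.

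Aen encodes a nuclease that degrades DNA and RNA during apoptosis. Aen read 6.38 and 6.90 in wild-type DEN livers, 6.80 and 7.08 in heterozygous, 6.11, 6.37, 6.94, 5.46 and 6.51 in N750F, 6.66 and 6.36 in knockout-labelled, and 5.55 and 5.82 in untreated livers. The exception among the DEN arrays was N750F array 4, which read below both untreated arrays. That array had a median deposited intensity of 48.2. The exceptions for Pmaip1 and Tnfrsf10b, wild-type array 4 and heterozygous array 4, had 55.3 and 58.8, and all other arrays 73.3 or more. The part of array brightness in these values was not tested. The mean of the DEN groups was 0.94 ± 0.31 above untreated (SE, limma adjusted p = 0.130), and in heterozygous livers, the highest group, the difference was 1.30 (limma adjusted p = 0.133). Aen passed the filter on dim genes, at 5.94, through its DEN groups, with means of 6.28 to 6.94. Its untreated mean of 5.68 lay below that level.

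Ei24 encodes a membrane protein of the endoplasmic reticulum that is induced by p53 and needed for autophagy. Ei24 read 11.56 and 11.61 in wild-type DEN livers, 11.61 and 11.96 in heterozygous, 11.52, 11.33, 11.66, 11.72 and 11.73 in N750F, 11.51 and 11.10 in knockout-labelled, and 10.09 and 10.43 in untreated livers. All 11 DEN arrays were above both untreated arrays, as for 2.94% of all genes tested. Mean normalized intensity was 3060 in wild-type DEN, 3540 in heterozygous, 3090 in N750F and 2540 in knockout-labelled livers, against 1220 in untreated livers. Ei24 rose by 1.22 ± 0.26 in wild-type DEN livers (SE, limma adjusted p = 0.0482), 1.42 ± 0.26 in heterozygous (0.0186) and 1.25 ± 0.21 in N750F (0.0104). The knockout-labelled difference of 1.04 ± 0.24 did not pass (limma adjusted p = 0.158). The wild-type call was kept only when a knockout-labelled array was the one left out, with adjusted p between 0.0324 and 0.449 over the 13 arrays left out in turn. The N750F call was lost without untreated array 1 (1.08, adjusted p = 0.207), and the heterozygous call without that array (1.25, 0.21), heterozygous array 3 (1.53, 0.0862) or heterozygous array 4 (1.35, 0.137).

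**Figure D2:**
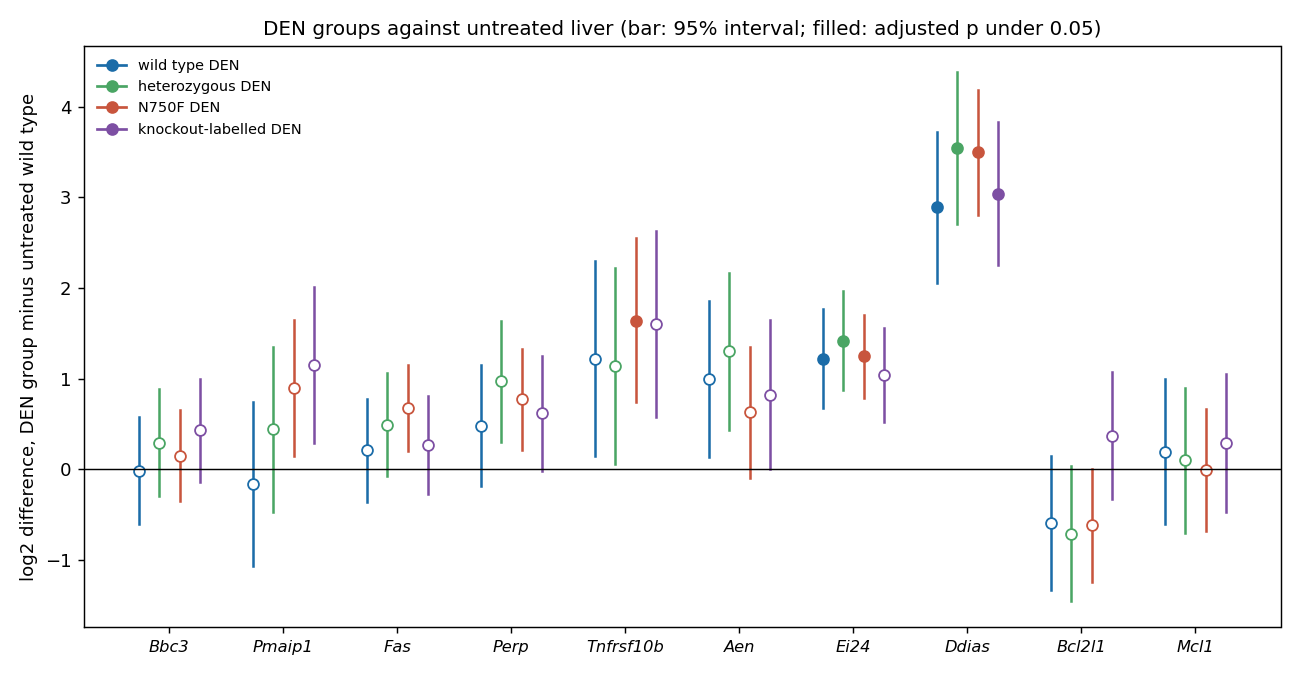
Log2 difference of each DEN group from untreated wild-type liver for the 10 genes, with bars for the 95% interval and filled points for an adjusted p below 0.05. Ddias stands apart at 2.89 to 3.55, Ei24 lies at 1.04 to 1.42, and all intervals of Bbc3 and Mcl1 span 0.

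Ddias encodes DNA damage induced apoptosis suppressor, also called noxin, which counters cell death after DNA damage. Ddias read 8.87 and 7.85 in wild-type DEN livers, 9.47 and 8.58 in heterozygous, 9.53, 8.94, 9.94, 8.26 and 8.68 in N750F, 9.59 and 8.43 in knockout-labelled, and 6.03 and 5.90 in untreated livers. Every DEN array was above both untreated arrays, with no overlap in any genotype. Mean normalized intensity was 333 ± 167 in wild-type DEN (SD, n = 2), 529 ± 229 in heterozygous (n = 2), 569 ± 274 in N750F (n = 5) and 540 ± 299 in knockout-labelled livers (n = 2), against 46.5 ± 4.05 in untreated livers (n = 2). The untreated mean lay just above the filter level, at 5.96 against 5.94 on the log2 scale.

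Ddias rose by 2.89 ± 0.39 on the log2 scale in wild-type DEN livers (SE, 95% interval 2.05 to 3.72, limma adjusted p = 0.00649). It rose by 3.55 ± 0.39 in heterozygous (limma adjusted p = 0.00151), 3.50 ± 0.32 in N750F (0.000604) and 3.04 ± 0.37 in knockout-labelled livers (0.0051). In N750F livers it ranked 1 of 14953 genes both by p and by log2 change. In order of mean level, before adjusting for run, the groups ran untreated, wild-type DEN, knockout-labelled, heterozygous and N750F. In the model, which adjusts for run, the heterozygous difference from untreated was the largest. Among neighbouring groups only the step between wild-type DEN and untreated passed the test. The run term was called for 2187 of the 14953 genes tested, so a run difference was not particular to Ddias. With no run term in the model, the wild-type and knockout-labelled calls of Ddias were lost. The second run read 0.98 lower than the first for Ddias (limma adjusted p = 0.0198), the only member with a called run term, and among arrays of the first run alone Ddias was 2.90 above untreated in wild-type DEN livers (adjusted p = 0.107), 3.50 in heterozygous (0.0573), 3.51 in N750F (0.00928) and 3.04 in knockout-labelled livers (0.0497). The wild-type call was also lost without untreated array 1 (2.95, 0.0721) and the knockout-labelled call without untreated array 2 (2.98, 0.0702), and without knockout-labelled array 2, high in muscle genes, the knockout-labelled difference was 3.62 (0.00219).

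The survival genes of the BCL-2 family did not pass in any DEN group. Bcl2l1 encodes BCL-XL, which binds BH3-only proteins and keeps mitochondria closed. Bcl2l1 read 7.12 and 7.87 in wild-type DEN livers, 7.39 and 7.33 in heterozygous, 7.48, 7.22, 7.16, 7.34 and 7.92 in N750F, 7.78 and 8.77 in knockout-labelled, and 7.95 and 7.87 in untreated livers. Of the 11 DEN arrays 8 lay below both untreated arrays and 1, knockout-labelled array 2, above both. The differences were -0.59 in wild-type DEN, -0.71 in heterozygous, -0.62 in N750F and 0.37 in knockout-labelled livers, and none passed (limma adjusted p = 0.494, 0.342, 0.223 and 0.790). The 8.77 was on the array high in skeletal muscle genes, and without that array the knockout-labelled difference was -0.13 (adjusted p = 0.924). The part of muscle RNA in that value was not tested.

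Mcl1 encodes MCL-1, a short-lived survival protein that NOXA binds. Mcl1 read 9.79 and 9.57 in wild-type DEN livers, 9.13 and 10.04 in heterozygous, 8.85, 9.31, 9.55, 9.80 and 9.67 in N750F, 9.86 and 9.26 in knockout-labelled, and 9.70 and 8.85 in untreated livers. Only 4 of the 11 DEN arrays were above both untreated arrays, and 1 untreated array read as low as the lowest DEN array, at 8.85. The mean difference was 0.14 (95% interval -0.47 to 0.76, limma adjusted p = 0.872), and a change within that interval is not excluded by these arrays.

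The second question was whether Rb1 genotype changed these genes after DEN. No member passed in any of the 6 comparisons between genotypes or in the F test over the 4 DEN groups. Wild-type DEN arrays differed in Y-linked signal from heterozygous and knockout-labelled arrays. In those comparisons genotype and sex cannot be told apart. For N750F against wild type 0 of 10 passed, against 1.42% of all genes tested, and before adjustment 2 members and 2193 of the 14953 genes were below 0.05. For N750F against heterozygous 0 passed, against 1.64%, with 0 members and 1668 genes below 0.05 before adjustment. For N750F against knockout-labelled livers 0 passed, where limma called 0% of all genes, with 1 member and 1823 genes below 0.05 before adjustment. For knockout-labelled against wild type 0 passed, against 0.0468%, with 2 members and 1278 genes before adjustment. For knockout-labelled against heterozygous 0 passed, against 0.301%, with 1 member and 1439 genes before adjustment. For heterozygous against wild type 0 passed, against 0.00669%, with 0 members and 1029 genes before adjustment. The F test called 0 members, against 1.34% of all genes. The smallest limma adjusted p of that test was 0.262, for Bcl2l1 (F = 4.52), followed by 0.276 for Pmaip1 (F = 4.33), and these 2 members and 2094 of all genes were below 0.05 before adjustment.

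**Figure D3:**
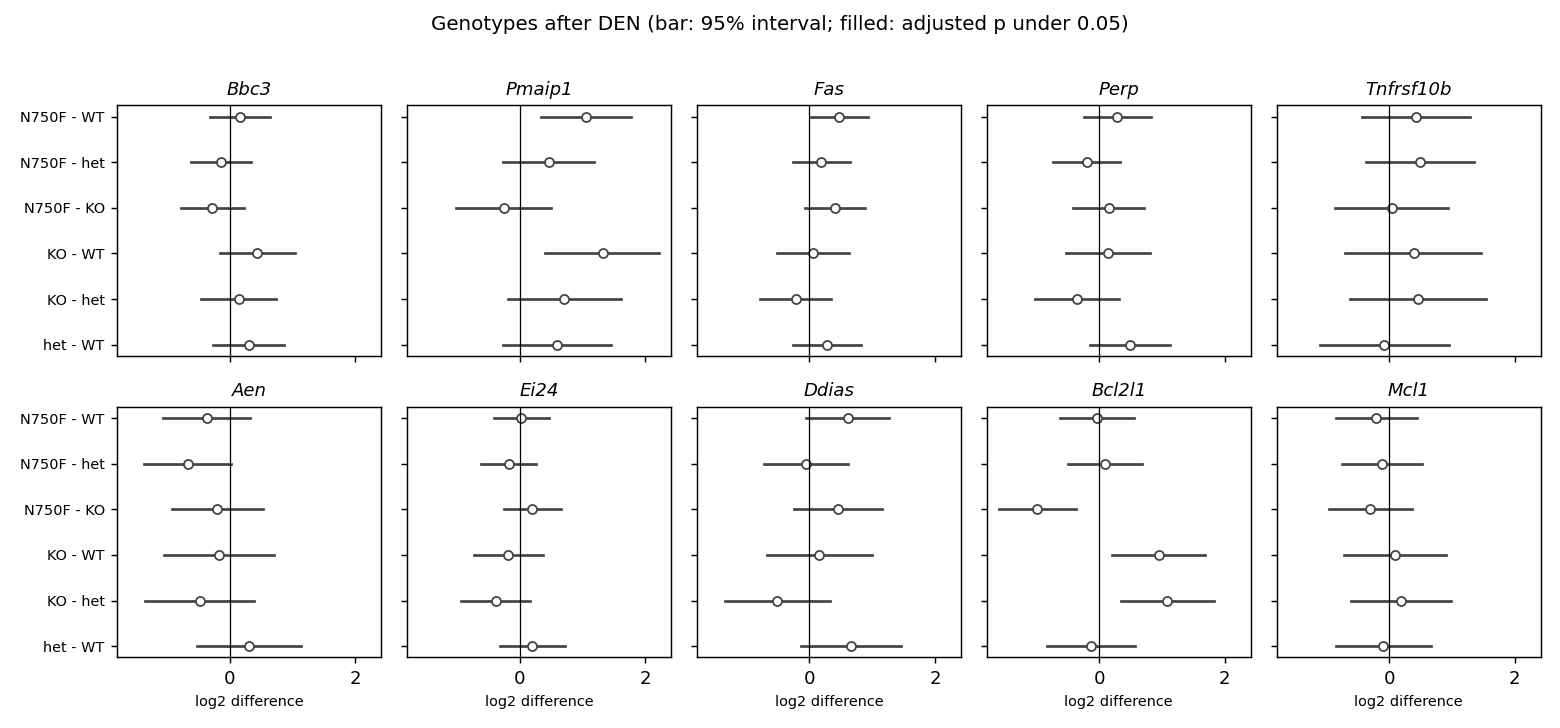
Log2 difference between DEN-treated genotypes for each gene, 1 row per comparison, with bars for the 95% interval. Open points mark comparisons with an adjusted p of 0.05 or more, and all 60 are open.

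Pmaip1 and Bcl2l1 had the widest differences between genotypes. Pmaip1 had passed the filter on dim genes through its N750F and knockout-labelled levels, as given above. Pmaip1 was 1.06 ± 0.34 higher in N750F than in wild-type DEN livers (SE, 95% interval 0.34 to 1.78, limma adjusted p = 0.165) and 1.32 ± 0.42 higher in knockout-labelled than in wild-type DEN livers (95% interval 0.41 to 2.22, limma adjusted p = 0.379). Both differences depended on which wild-type array was used. The knockout-labelled difference was 0.74 without wild-type array 4 (adjusted p = 0.999) and 2.22 without wild-type array 3 (0.0581). Among arrays of the first run the N750F difference was 0.26 (adjusted p = 0.998), and without wild-type array 3 it was 1.83 and passed (adjusted p = 0.0256).

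Bcl2l1 in N750F was 0.99 ± 0.29 below knockout-labelled livers, a log2 difference of -0.99 (SE, 95% interval -1.60 to -0.37, limma adjusted p = 0.255). Without knockout-labelled array 2, high in muscle genes, it was -0.49, and without knockout-labelled array 1 it was -1.48 and passed (adjusted p = 0.0231). Knockout-labelled livers were 1.08 ± 0.34 above heterozygous livers (limma adjusted p = 0.289), and 0.59 above them without array 2. For Fas all 5 N750F arrays read above both wild-type DEN arrays (0.47, 95% interval 0.02 to 0.93, limma adjusted p = 0.325). They also read above both knockout-labelled arrays (0.41, -0.07 to 0.89, 0.478) and overlapped the heterozygous arrays. The share of all genes with such a separation was not counted.

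For the genes that rose with DEN, no difference between genotypes passed the test. Ddias in N750F differed from wild-type DEN livers by 0.61 (95% interval -0.05 to 1.27, limma adjusted p = 0.381), from heterozygous by -0.05 (-0.72 to 0.61) and from knockout-labelled livers by 0.45 (-0.24 to 1.15). Ei24 in N750F differed from wild-type DEN livers by 0.03 (-0.41 to 0.47), and Tnfrsf10b by 0.43 (-0.43 to 1.29). For Ei24 both knockout-labelled arrays read below both wild-type DEN arrays (difference -0.18, -0.73 to 0.37) and both heterozygous arrays (-0.38, -0.93 to 0.17). For Tnfrsf10b they read above both wild-type DEN arrays (0.39, -0.70 to 1.47). None of these passed (limma adjusted p = 0.881, 0.687 and 0.867). The share of all genes with such a separation between groups of 2 arrays was not counted. The intervals above do not show that the genotypes acted alike.

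The apoptosis machinery around the members gave few calls. Of 11 tested genes of the BCL-2 family outside the members, 0 passed by limma in any of the 4 DEN groups or in their mean, and likewise 0 of 10 tested genes of the death receptor route. The shares called over all genes tested were 0.689% in wild-type DEN, 1.4% in heterozygous, 6.21% in N750F and 0.0869% in knockout-labelled livers. In the mean the share was 2.19%. Lists this short would hold few calls at those shares, so the counts of 0 are no result about these routes. Of 14 tested caspase and apoptosome genes, 2 rose in N750F livers, where 6.21% of all genes tested were called, Apaf1, the scaffold of the apoptosome, by 1.38 ± 0.32 (limma adjusted p = 0.0275) and Parp1, a DNA break sensor that caspases cleave, by 0.86 ± 0.24 (0.0493). Birc5, an inhibitor of apoptosis that is also a mitotic gene, fell by 3.81 in heterozygous DEN livers (limma adjusted p = 0.0319) and was 3.45 ± 0.61 higher in N750F than in wild-type DEN livers (0.0134). Bax, Trp53 and Cdkn1a were not analysed here, since none had a probe set of its own symbol alone.

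Among 30 other p53 targets tested, more genes rose. The number that rose was 5 in wild-type DEN, 7 in heterozygous, 11 in N750F and 5 in knockout-labelled livers, and 0 fell in any of them. The shares called over all genes tested were 0.689%, 1.4%, 6.21% and 0.0869% in the same order. Some of this list's genes were known from earlier results of these data to rise, so its counts are no independent evidence. Ccng1, a cyclin of the DNA damage response, rose by 1.87 ± 0.23 in wild-type DEN livers (limma adjusted p = 0.00463), and Phlda3, an inhibitor of AKT signalling, by 2.08 ± 0.33 (0.0136). Ephx1, an epoxide hydrolase, rose by 2.64 ± 0.30 in the same livers (0.00428). The median log2 difference of these targets was 0.29 in wild-type DEN, 0.57 in heterozygous, 0.41 in N750F and 0.62 in knockout-labelled livers.

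Genes with the most similar pattern over the 13 arrays, after removing the run effect, were named for the 3 members that passed. For Ddias they were Gria3 (Pearson r = 0.969), Ccng1 (0.963) and Mybl1 (0.961). For Ei24 they were Wee1 (0.986), Mrps31 (0.973) and Nrd1 (0.972), and for Tnfrsf10b Nol9 (0.901), Hsd17b7 (0.882) and Ankrd11 (0.882). These correlations are descriptions, since all points share the split between DEN and untreated arrays. Gria3 was 2.61 above untreated in wild-type DEN livers and 3.30 in N750F livers, and Wee1, a kinase that delays mitosis, was 1.94 and 1.96 above untreated in the same groups.

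Markers of other cell types differed between some groups, and in whole tissue fewer cells of a type and less RNA per cell cannot be told apart. Kupffer cell markers summed to 1704 to 1748 in wild-type DEN, 2135 to 2396 in heterozygous, 2520 to 4259 in N750F and 2824 to 4245 in knockout-labelled livers, against 3832 to 5467 in untreated livers, and the N750F and knockout-labelled ranges overlapped the untreated one. In wild-type DEN livers 3 of 12 fell (Csf1r, Lyz2 and Cd5l), in heterozygous livers 1 fell (Cd5l), and in N750F livers Timd4 rose by 1.24 ± 0.24 (limma adjusted p = 0.015) and C1qc fell. Of 5 tested neutrophil markers 1, S100a8, fell in wild-type DEN, heterozygous and N750F livers. In heterozygous livers 1 of 5 erythroid (Slc4a1), 1 of 12 endothelial (Cdh5) and 1 of 12 stellate (Reln) markers fell. In N750F livers 1 of the 12 endothelial markers (Oit3) rose. The other tested markers of these lists did not pass, and the median difference of the endothelial list was -0.47 in heterozygous and 0.08 in N750F livers. The shares called over all genes tested were 0.689% in wild-type DEN, 1.4% in heterozygous and 6.21% in N750F livers. None of the 10 hepatocyte markers passed in any DEN group. The mean log2 level of 23 cell cycle genes was 6.53 to 6.72 in wild-type DEN, 6.14 to 6.22 in heterozygous, 8.31 to 8.59 in N750F and 7.28 to 8.82 in knockout-labelled livers, against 7.52 to 7.75 in untreated livers. Ddias read 8.87 and 7.85 on the wild-type DEN arrays and 9.47 and 8.58 on the heterozygous arrays. It read 8.26 to 9.94 on the N750F arrays, 9.59 and 8.43 on the knockout-labelled arrays, and 6.03 and 5.90 in untreated livers. The part of these markers in the other results was not tested.

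**Figure D4:**
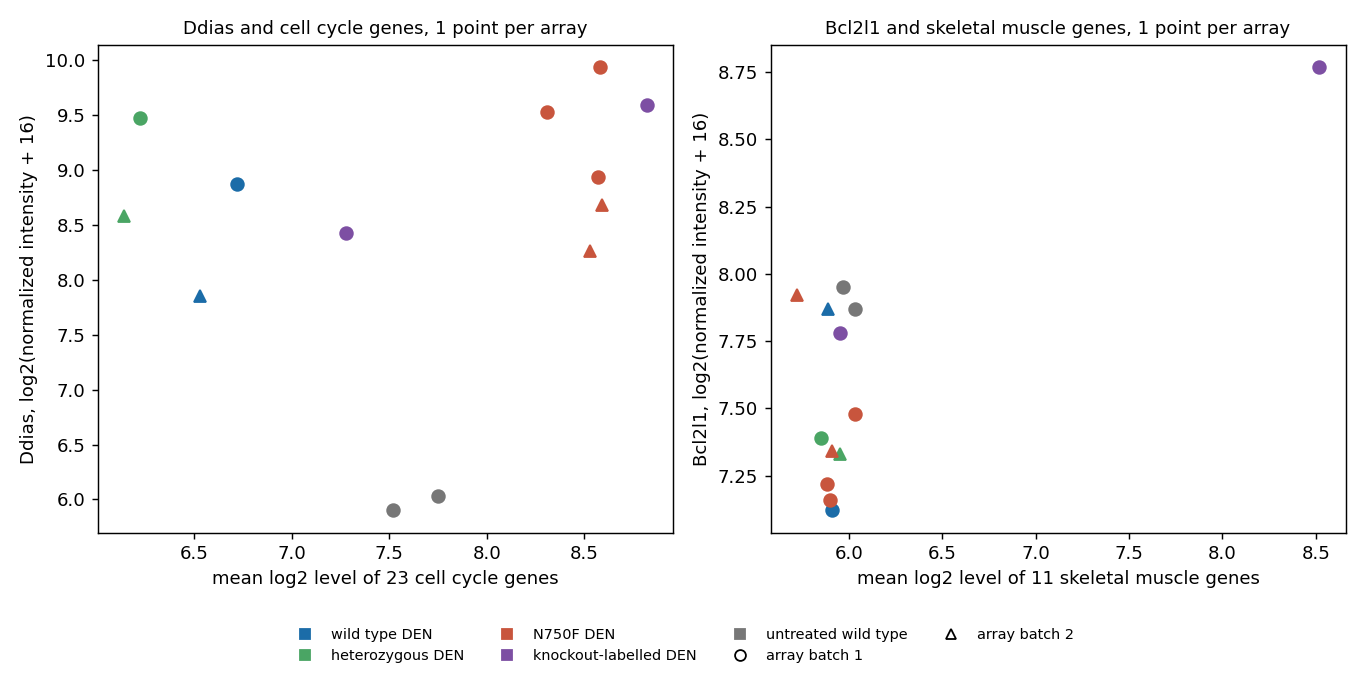
Left, Ddias against the mean log2 level of 23 cell cycle genes, and right, Bcl2l1 against that of 11 skeletal muscle genes, 1 point per array, both axes in log2 units. Ddias is at 7.85 or more on DEN arrays with low and with high cell cycle levels, and the highest Bcl2l1 value, 8.77, is on the knockout-labelled array with a muscle level of 8.52.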

How the data were processed

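Per the labels' protocols, liver RNA was amplified with WT-Ovation Pico reagents, labelled with biotin and read on 13 Affymetrix arrays. The authors deposited linear intensity values of 35556 probe sets (medians 48.2 to 83 per array). The submitters' processing notes name RMA and Affymetrix Expression Console 1.1. The genome build and probe positions are not given in the sources used here, and no detection calls were used. Deposited intensities were quantile-normalized, 16 was added and log2 taken, which understates changes of dim genes. Probe sets with 1 symbol in GEO's platform annotation (21789 of 23410 listed, 21698 updated through Entrez IDs) were used, with the highest mean kept per gene. Dim genes, whose mean fell under the 25th percentile (log2 5.94), were not tested.

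A limma 3.58.1 model (R 4.3.3) over all 13 arrays held the 5 groups and the array run named in the raw array names (9 and 4 arrays), with 7 residual degrees of freedom. P-values were adjusted by Benjamini-Hochberg over the 14953 genes tested, within each comparison. The test was also run on simulated data with independent normal noise and no run effect, a simpler setting than these arrays. That check does not cover run effects or genes that vary together. Promoters are RefSeq's. No 2 arrays were identical (0 of 78 pairs). The number of arrays limits precision. Alternatives covered normalization, offset, filter, probe set choice, run, sex, replicate numbers, array weights, samples in the fit and each array left out. Members and lists were chosen with earlier results of these data known. All members are named, together with the 3 most similar genes of each member that passed in a DEN group and, per list and comparison, up to 3 called genes of smallest p.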

Additional observations from a re-analysis of the deposited data

Results flagged for a closer look

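Pmaip1 on N750F array 1 read 5.75 on the log2 scale, against 6.43 to 6.65 on the other 4 N750F arrays. Its gap to the nearest of them was 0.751 of the range of the group, above Dixon's 95% critical value for 5 samples. Chance flags about 1 in 20 groups. The array was the only N750F array with Y-linked signal, and the part of sex in this value was not tested.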

How the results depend on the processing

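Over 26 alternative settings the 10 differences from untreated that passed never changed sign. They stayed past the threshold in 209 of 257 values and missed it in 48. Of the 1018 values of differences from untreated that had not passed, 9 passed and 37 changed sign, in Mcl1 (21), Bbc3 (11), Pmaip1 (4) and Bcl2l1 (1). Of 1542 values between genotypes, 2 passed and 83 changed sign. The cause of these changes was not tested.

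Members that passed in wild-type DEN livers numbered 2, but 1 with no normalization, median scaling, an offset of 1, no filter, the Y-linked level as covariate or array weights, and 0 with no run term, the first run alone or only the groups compared. The wild-type call of Ei24 was the one most often lost. In heterozygous livers 2 became 0 in the first run alone and 1 with only the groups compared. In N750F livers 3 became 2, without Tnfrsf10b, with no run term, the first run alone or the Y-linked covariate. The 3 became 8 with array weights, which added Fas, Perp, Aen, Pmaip1 (0.92, limma adjusted p = 0.0206) and Bcl2l1, which was lower (-0.65, 0.0461). In the mean of the DEN groups 2 became 5 with array weights. In knockout-labelled livers 1 became 0 with no run term or only the groups compared. Leaving out 1 array at a time gave 0 to 2 in wild-type DEN, 1 to 2 in heterozygous, 1 to 3 in N750F, 0 to 1 in knockout-labelled livers and 1 to 3 in the mean, 0 to 1 for N750F against wild type and against knockout-labelled, and 0 in the other genotype comparisons. Where a group was left with 1 array, that array was assumed to vary like the other groups.

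With the replicate block, the labels' replicate number in place of the run, members passing were 0 in wild-type DEN, 1 in heterozygous, 1 in N750F, 1 in knockout-labelled livers and 1 in the mean. Same-numbered arrays had correlations of -0.131 to 0.452, over 0.1 in 7 of 12 pairs. The 6 pairs of numbers 3 and 4 had 0.27 to 0.452, but number 3 lay in the first run and 4 in the second, and the model already holds the run. The pairs of numbers 1 and 2 had -0.131 to 0.133, so the numbers were not taken as pairing.

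Counts over all genes moved more. N750F DEN against untreated gave 928 genes, 13 to 1355 with 1 array left out, 82 with no run term, 16 with the replicate block and 2753 with array weights. Wild-type DEN gave 103, 4 to 226 with 1 array left out, 22 with no normalization and 193 with an offset of 50. Heterozygous DEN gave 210 (28 to 407), knockout-labelled 13 (0 to 46), the mean 328 (13 to 814), N750F against wild type 212 (2 to 494), N750F against heterozygous 245 (18 to 314) and N750F against knockout-labelled 0 (0 to 511). Knockout-labelled against wild type gave 7 (0 to 92), knockout-labelled against heterozygous 45 (2 to 135), heterozygous against wild type 1 (0 to 131) and the F test 200 (109 to 536). A filter at the median left 7 members tested, without Tnfrsf10b. Dim members are limited by signal near background.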
